A study of Mus musculus with 12 samples.

Results

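The response of mature epididymal white adipocytes (eWAs) to the β-adrenergic agonist isoproterenol (ISO) was examined with lipolysis left intact. The members were 6 of the 12 libraries of the series, the 3 whose titles carry ISO alone and the 3 whose titles carry DMSO alone, here called vehicle. Fat cells from the epididymal depot of lean male C57/BL6J mice were released by collagenase, separated by floatation and set in a hydrogel at 50000 cells per well, and after 2 days of culture they received vehicle or ISO for 3 h. Neither of these groups received the inhibitors of ATGL and HSL that were given in the other 6 libraries, and both groups share the strain, sex, isolation and culture. The age of the mice, the ISO dose for eWAs and the pooling of animals are not given in the sources used here, which describe 3 biologically independent experiments. A figure legend of the study names the ABHD5 ligand SR-3420 as the stimulus of the eWAs, while the titles and the results text name ISO, which is used here.

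Noradrenaline, the natural ligand of the β-adrenergic receptors, acts through the stimulatory G protein and adenylyl cyclase to raise cAMP, and cAMP-dependent protein kinase then phosphorylates HSL, perilipin and the transcription factor CREB. Fatty acids released by ATGL and HSL leave the cell, are esterified again or serve as ligands and fuel. White adipocytes also secrete leptin, adiponectin and many growth factors, so a β-adrenergic signal can change what the depot sends out as well as what it burns.

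Values are CPM, the counts of a gene relative to the TMM-scaled size of its library. Fold changes are log2 ratios of ISO over vehicle with their standard error from the quasi-likelihood test of edgeR. A gene rose or fell where the Benjamini-Hochberg adjusted p was at or under 0.05, and it was called where the change was also at least 2-fold. Levels in CPM are not per length and are compared between libraries, not between genes. Genes named for the size of their log2 fold change, over all genes or in a list, had to show no overlap of the groups. The absence of overlap in such genes is therefore no further support. The p-values rest on the spread between 3 libraries a group, estimated over all 12 libraries of the series. This includes the 6 libraries that received the inhibitors.

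Of 13543 tested genes, 769 were called higher with ISO (5.68%) and 244 were called lower (1.80%). The changes upward were the larger ones. A log2 fold change of at least 2 was reached by 250 of the genes called higher, of at least 3 by 103 and of at least 4 by 38. A fall of at least 2 was seen for 15 genes and of at least 3 for 1 gene. Most changes were small in both directions: 901 further genes rose and 1634 further genes fell by less than 2-fold, so that 1670 genes rose (12.3%) and 1878 fell (13.9%). The median log2 fold change was 0.93 among genes that rose, -0.55 among genes that fell and 0.00176 among all tested genes. With scaling by library totals alone, 37.0% of the genes past the adjusted p rose, against 47.1% with TMM.

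The genes called higher took 2.09%, 2.42% and 2.15% of the scaled counts in the vehicle libraries and 6.68%, 6.49% and 7.01% in the ISO libraries. Those called lower went from 1.13%, 1.05% and 1.13% to 0.417%, 0.413% and 0.443%. These genes were called on the same libraries, so the shares only describe them. By quartile of the mean level over the 6 libraries, from the lowest to the highest, the genes called higher numbered 304, 198, 118 and 149, and those called lower 83, 83, 50 and 28. The ISO and vehicle libraries did not overlap for 753 of the genes called higher and for all 244 called lower, and over all tested genes this held for 20.7% with ISO above and 22.6% with ISO below. The number called higher depended on the libraries. It was 431 without replicate 3 of every group and between 538 and 994 in the other 8 fits that left out libraries, with the highest value without vehicle 2, and the number called lower was 208 to 278.

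**Figure D1:**
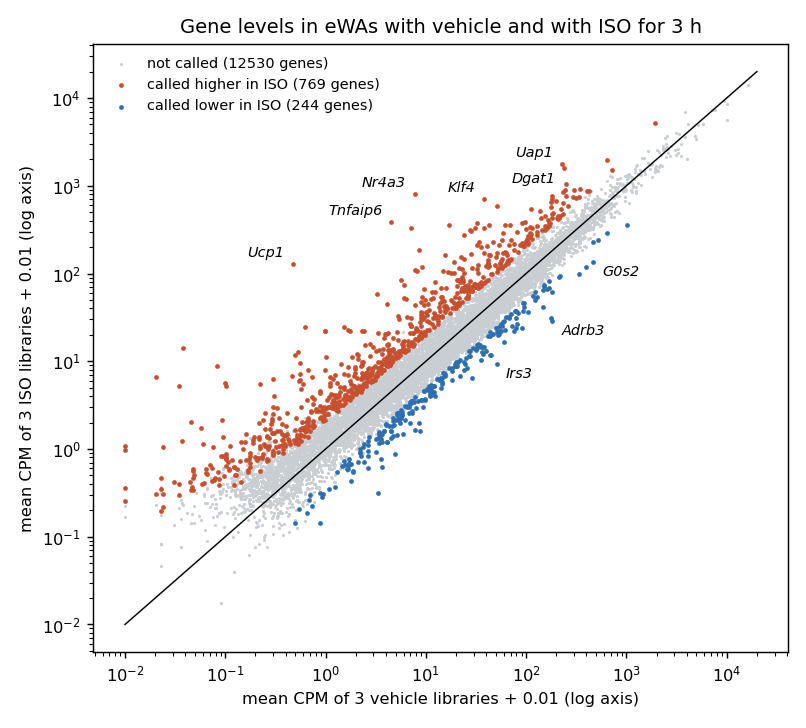
Mean CPM of every tested gene in the 3 vehicle libraries (x axis) and the 3 ISO libraries (y axis), both on log axes with 0.01 CPM added, and the line marks equal levels. The 769 genes called higher (red) reach farther from the line than the 244 called lower (blue), and Nr4a3, Tnfaip6 and Ucp1 stand far above it.

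Markers of the labelled cell type were high in every library. The summed level of 10 adipocyte markers was 30325 to 38486 CPM with vehicle and 26896 to 35786 CPM with ISO. Of these 10 markers 3 fell, Lep, Acvr1c and Pparg, and 9 had a log2 fold change below 0. Summed markers of 5 other cell types were higher in each ISO library than in each vehicle library. The 11 macrophage markers went from 56.4 to 71.4 CPM to 116 to 174 CPM, 10 endothelial markers from 133 to 252 CPM to 302 to 545 CPM, and 11 markers of fibroblasts and adipocyte progenitors from 434 to 763 CPM to 846 to 1114 CPM. The 9 mesothelial markers went from 29.8 to 74.7 CPM to 75.3 to 90.2 CPM, and the 5 tested markers of granulocytes and mast cells from 3.88 to 6.67 CPM to 10.7 to 23.1 CPM. Of these 5, Epx had a mean of 0.0105 CPM with vehicle and 6.66 CPM with ISO, and it passed the filter only through groups other than vehicle. Prg2, Siglecf, Ccr3, S100a9, Mcpt4 and Ms4a2 of the same list were too low to be tested, so the sum covers only the members that the filter kept. The tested markers of each of these 5 lists all had a log2 fold change above 0, and 6, 1, 4, 1 and 3 of them rose (8, 9, 8, 3 and 4 with the replicate block). The macrophage count was 2 without replicate 2 and 3 without replicate 3, and the fibroblast count was 8 without vehicle 2, 2 without vehicle 3 and 1 without replicate 3. The granulocyte and mast cell count was 1 without replicate 1, replicate 3, vehicle 1, vehicle 3, ISO 2 or ISO 3. The T and B cell genes Cd2, Cd3d, Cd3g, Cd4, Cd79a, Cd79b, Cd8a and Ms4a1 and all 6 epididymal epithelial genes were too low to be tested. In such bulk libraries, more cells of a type and more RNA per cell cannot be told apart, and the part of these cells in the results below was not tested.

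**Figure D2:**
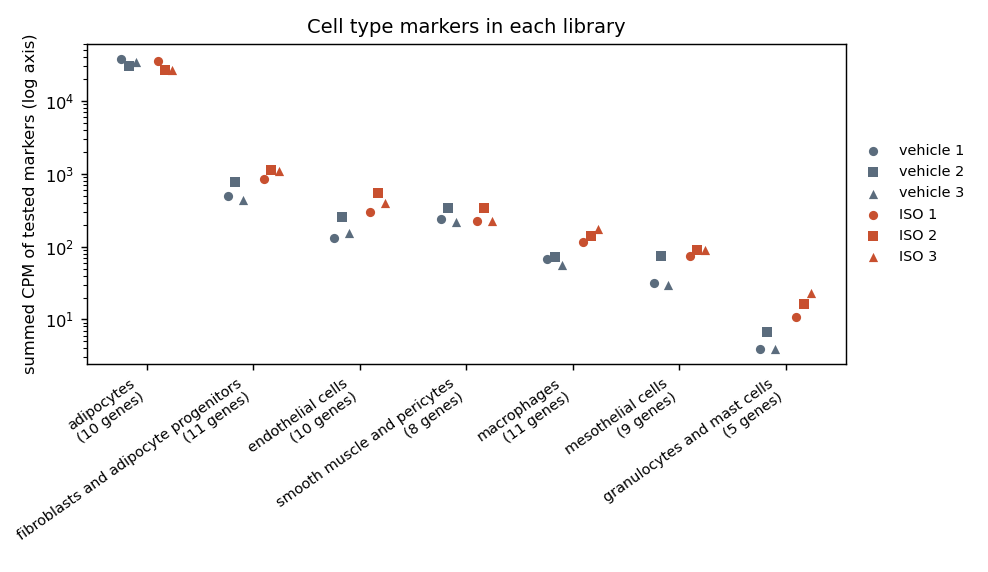
Summed CPM of the tested markers of 7 cell types in each of the 6 libraries, on a log axis, with grey for vehicle, red for ISO and the symbol giving the replicate. Adipocyte markers sum to 26896 CPM or more in each library, and the macrophage, endothelial, fibroblast, mesothelial and granulocyte and mast cell sums are higher in each ISO library than in each vehicle library.

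The programs differed in how many of their genes were called. Among 33 gene lists, the largest shares called higher were in the immediate early factors (17 of 27 tested), the phosphodiesterases and G-protein brakes (9 of 29), the cytokines and chemokines (11 of 38) and the MAPK phosphatases and feedback inhibitors (7 of 26), beside 5.68% of all tested genes. The largest shares called lower were in the adrenergic receptors and cAMP production (3 of 31) and the insulin pathway (3 of 35), beside 1.80%. Counts of each list given below stand beside 12.3% of all tested genes that rose and 13.9% that fell. The respiratory chain and ATP synthase stood at the other end, with 0 of 76 genes called in either direction by edgeR and by DESeq2. Their log2 fold changes in edgeR lay between -0.21 and 0.39, so no p could have given a call. At any size 1 of them rose, and 5 with the replicate block.

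**Figure D3:**
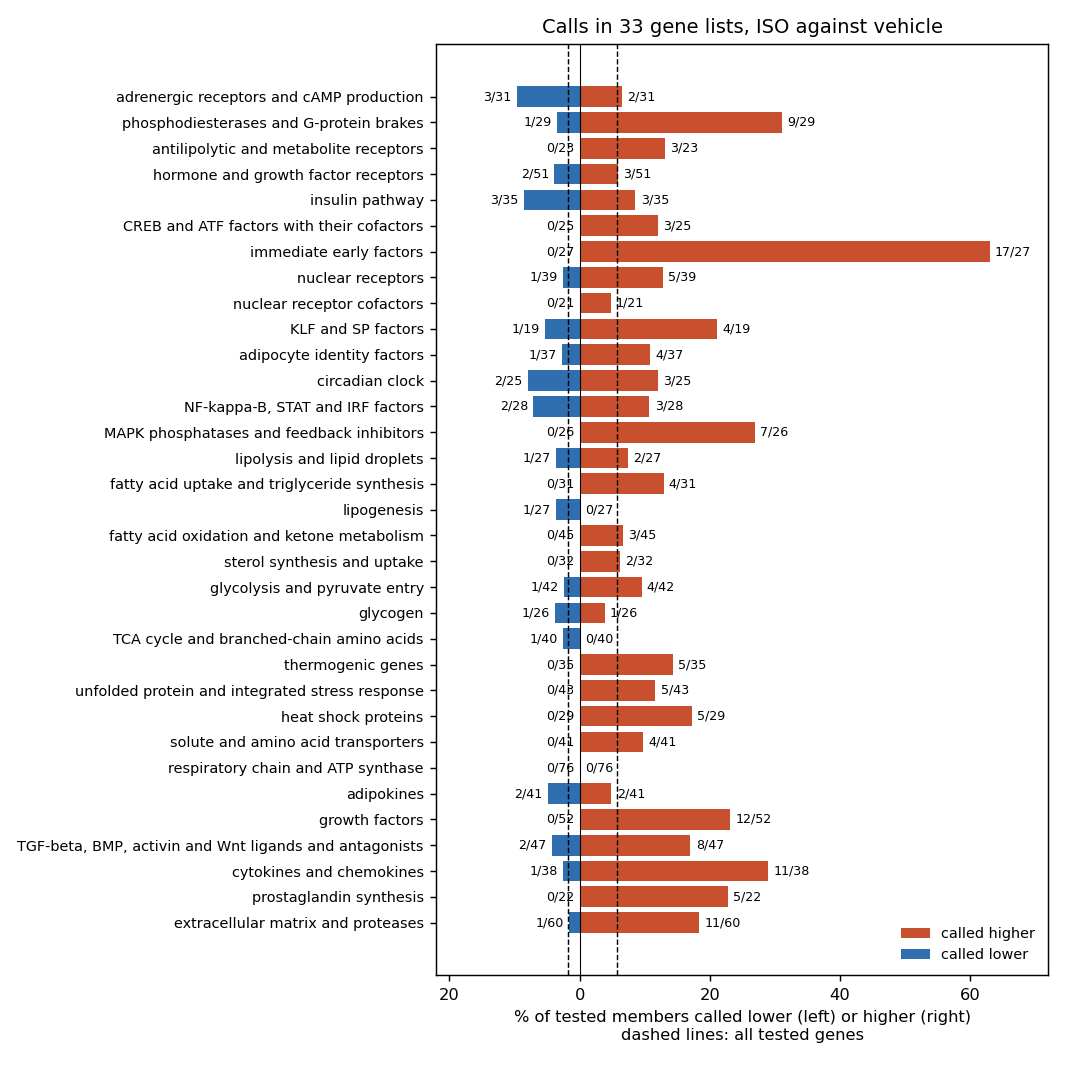
Share of the tested members of 33 gene lists that were called higher (red, to the right) or lower (blue, to the left) with ISO, with counts beside the bars and dashed lines at the shares of all tested genes, 5.68% and 1.80%. The bar of the immediate early factors (17 of 27) is the longest, and the respiratory chain has none.

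Of the β-adrenergic receptors, through which ISO acts, Adrb1 and Adrb3 fell. Adrb1, the β1-adrenergic receptor, was at 12.03, 11.2 and 12.9 CPM with vehicle and 5.11, 3.51 and 4.89 CPM with ISO (log2 fold change -1.43 ± 0.18, adjusted p = 0.000103), so its ISO range lay below its vehicle range. Adra1a, an α1-adrenergic receptor that couples to calcium, was at 8.50, 7.18 and 9.87 CPM with vehicle and 2.29, 1.79 and 1.86 CPM with ISO (log2 fold change -2.11 ± 0.24, adjusted p = 3.94e-05). Adrb3, the β3-adrenergic receptor of adipocytes, had a log2 fold change of -2.67 ± 0.23. Of 31 tested genes of adrenergic receptors and cAMP production, 3 rose (5 with the replicate block, 5 without ISO 2) and 7 fell, with a median log2 fold change of -0.01. These were 9.68% and 22.6%, beside 12.3% and 13.9% of all tested genes. The share called higher, 6.45%, was near the 5.68% of all tested genes. The 2 called higher were adenylyl cyclases, Adcy3 (log2 fold change 1.41 ± 0.16) and Adcy7 (1.21 ± 0.22), and the span of Adcy3 overlaps that of Cenpo. Adcy7 did not pass without replicate 3 (log2 fold change 0.92, adjusted p = 0.0564).

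Several genes whose products end the cAMP signal rose. Pde4d, a phosphodiesterase that hydrolyzes cAMP, was at 22.3, 20.5 and 24.3 CPM with vehicle and 192, 125 and 141 CPM with ISO (log2 fold change 2.77 ± 0.15, adjusted p = 1.02e-07). Pde10a, a phosphodiesterase of cAMP and cGMP, was at 5.08, 6.21 and 4.78 CPM with vehicle and 28.7, 28.2 and 33.6 CPM with ISO (log2 fold change 2.49 ± 0.18, adjusted p = 9.97e-07). Neither gene showed any overlap of the groups, which the rule for naming genes by their change required. Pde7b (log2 fold change 2.24 ± 0.20) and Pde4b (2.56 ± 0.47) were called higher as well. Pde3b, the phosphodiesterase through which insulin restrains lipolysis, did not pass, at 494, 401 and 439.5 CPM with vehicle and 592, 459 and 537 CPM with ISO (log2 fold change 0.25 ± 0.14, adjusted p = 0.203). Over the 29 tested phosphodiesterases, RGS proteins and kinase inhibitors, 10 rose and 3 fell (1 without vehicle 3), with a median of 0.76 against 0.00176 over all genes. Pkia, an inhibitor of cAMP-dependent protein kinase, fell by 0.61 ± 0.15 on the log2 scale, but not without replicate 3 or vehicle 3 (adjusted p = 0.146 and 0.0565).

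Among 23 receptors for metabolites and antilipolytic signals, 3 were called higher, 6 rose and 3 fell. Gpr35, a receptor of kynurenic acid, a tryptophan metabolite, was at 1.86, 3.48 and 1.49 CPM with vehicle and 9.60, 9.54 and 9.90 CPM with ISO (log2 fold change 2.09 ± 0.32, adjusted p = 0.000464). Hcar1, the lactate receptor that inhibits lipolysis, fell from a narrow vehicle range, at 49.4, 48.7 and 51.0 CPM with vehicle and 30.4, 24.9 and 21.5 CPM with ISO (log2 fold change -0.96 ± 0.16, adjusted p = 0.000985). Adora1, the antilipolytic adenosine A1 receptor, had a log2 fold change of -0.88 ± 0.25 (adjusted p = 0.0214) but its span overlaps that of Mybph, and the adjusted p of Adora1 was above 0.05 in the fits without replicate 2, replicate 3, vehicle 1, ISO 2 and ISO 3 in turn (at most 0.138). Ffar4, a receptor for long-chain fatty acids, was at 7.61, 7.22 and 6.89 CPM with vehicle and 7.80, 6.74 and 8.43 CPM with ISO, with overlapping groups. With the replicate block, 6 members of the list fell instead of 3, and the number was 1 without replicate 2, replicate 3, vehicle 1, ISO 2 or ISO 3.

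Hormone and growth factor receptors moved in both directions, with 10 that rose and 12 that fell of 51 tested. These were 19.6% and 23.5%, beside 12.3% and 13.9% of all tested genes. The share called higher, 5.88%, was near the 5.68% of all tested genes. Cntfr, the receptor subunit for ciliary neurotrophic factor and for the complex with Clcf1, was at 1.39, 1.85 and 2.04 CPM with vehicle and 26.4, 23.4 and 16.8 CPM with ISO (log2 fold change 3.67 ± 0.28, adjusted p = 1.5e-06), with every ISO library above every vehicle library. Tnfrsf1b, a tumor necrosis factor receptor, was at 59.0, 61.1 and 56.0 CPM with vehicle and 177, 164 and 169 CPM with ISO (log2 fold change 1.53 ± 0.09, adjusted p = 2.17e-07). Acvr1b, a type I activin receptor, fell by 1.63 ± 0.15 on the log2 scale (adjusted p = 8.53e-06). Erbb2 (log2 fold change -0.80 ± 0.14), whose span overlaps Mien1, and the natriuretic peptide clearance receptor Npr3 (-0.79 ± 0.12) fell by less than 2-fold. Counts in this list moved with single libraries. Against 3 called higher there were 5 without ISO 1, 7 without vehicle 2 and 8 without replicate 2. Those that rose numbered 5 without replicate 3 and 6 without vehicle 1 or vehicle 3, and those that fell 5 without replicate 2 or replicate 3 and 7 without ISO 2.

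The insulin pathway showed opposite changes of related adaptors. Irs3, an insulin receptor substrate of rodent adipocytes (mm9 chr5:138084260-138086942), was at 52.9, 44.6 and 55.7 CPM with vehicle and 10.6, 9.14 and 8.52 CPM with ISO (log2 fold change -2.44 ± 0.13, adjusted p = 8.61e-08). Irs2, the substrate that responds to CREB in liver, was at 309, 225 and 252 CPM with vehicle and 785, 453 and 527 CPM with ISO (log2 fold change 1.17 ± 0.22, adjusted p = 0.00184), and Irs1 did not pass (log2 fold change 0.30 ± 0.17, adjusted p = 0.204). Both Irs2 and Irs3 had ISO ranges outside their vehicle ranges, in opposite directions. Pik3r1, the regulatory subunit of phosphoinositide 3-kinase, was at 385, 284 and 348 CPM with vehicle and 109.9, 90.05 and 93.7 CPM with ISO (log2 fold change -1.79 ± 0.13, adjusted p = 1.21e-06). Socs3, which inhibits cytokine and insulin receptor signaling, was at 10.4, 10.7 and 12.7 CPM with vehicle and 57.1, 48.1 and 48.5 CPM with ISO (log2 fold change 2.19 ± 0.11, adjusted p = 7.79e-08). The insulin receptor Insr had a log2 fold change of -0.52 ± 0.10 (adjusted p = 0.00286; 0.053 without replicate 3). Slc2a4, which encodes the insulin-responsive transporter GLUT4, was at 21.8, 17.7 and 17.6 CPM with vehicle and 22.9, 18.2 and 15.0 CPM with ISO, with overlap. In all, 5 of 35 tested genes rose and 9 fell (5 without replicate 3), with a median of -0.14, and the number called higher was 1 without ISO 1, against 3. The shares that rose and fell were 14.3% and 25.7%, beside 12.3% and 13.9% of all tested genes.

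Transcription factors held some of the largest responses. Of the CREB and ATF factors and their cofactors, 3 of 25 were called higher. Sik1, a kinase that is induced by cAMP and phosphorylates CREB coactivators, was at 23.7, 25.6 and 34.3 CPM with vehicle and 354, 259.6 and 326 CPM with ISO (log2 fold change 3.49 ± 0.25, adjusted p = 9.7e-07). Atf3, a stress-responsive factor, was at 26.6, 45.2 and 55.9 CPM with vehicle and 155, 143 and 189.8 CPM with ISO (log2 fold change 1.94 ± 0.27, adjusted p = 0.000225). Crtc3, one of the CREB coactivators, fell, at 42.6, 33.02 and 37.7 CPM with vehicle and 19.0, 23.6 and 22.6 CPM with ISO (log2 fold change -0.80 ± 0.12, adjusted p = 0.000515), and Creb1 itself was at 42.0, 39.6 and 41.6 CPM with vehicle and 34.0, 38.2 and 35.5 CPM with ISO (log2 fold change -0.19 ± 0.08, adjusted p = 0.102). With the replicate block 11 members fell instead of 5, and there were 2 without replicate 2, 3 without vehicle 3 or ISO 2 and 8 without ISO 3.

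CREB binds the palindrome TGACGTCA and, more weakly, its 5-base core TGACG, so promoters of responding genes were searched for both. RefSeq promoter windows of 300 bases (250 before to 50 after a start, GRCm38.p6) were matched by symbol to 10210 of the 13543 tested genes. TGACGTCA was present in a window of 4.42% of the 566 matched genes called higher (25 genes), 3.26% of the 184 called lower (6 genes) and 3.54% of all matched genes, and TGACG on either strand, which the palindrome also contains, in 34.98%, 33.7% and 34.4%. Of all 32851 windows in the RefSeq table, 1.79% held the palindrome and 20.8% the core. These shares describe the windows and were not tested. The named genes called higher that were searched numbered 96. These leave out genes of a chromosome not searched for this and genes named only by their difference in CPM. The 96 were not limited to genes matched to a window. The palindrome was present in 3 of the 96, beside 3.54% of all matched genes. These were Has1, which encodes a hyaluronan synthase, Dio2, which encodes the deiodinase that activates thyroid hormone, and Dusp1, a MAPK phosphatase, with log2 fold changes of 4.65, 4.08 and 1.62. They are shown as 100 bases each, 5′ to 3′ on the minus strand, with the palindrome in capitals, and the palindrome began 83, 95 and 143 bases before the RefSeq start.
Has1, GRCm38.p6 chr17:17855218-17855317, minus strand: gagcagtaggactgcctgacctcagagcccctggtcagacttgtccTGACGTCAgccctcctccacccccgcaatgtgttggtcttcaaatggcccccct
Dio2, GRCm38.p6 chr12:90739080-90739179, minus strand: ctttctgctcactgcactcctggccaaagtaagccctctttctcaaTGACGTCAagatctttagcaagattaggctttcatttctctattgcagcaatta
Dusp1, GRCm38.p6 chr17:26508562-26508661, minus strand: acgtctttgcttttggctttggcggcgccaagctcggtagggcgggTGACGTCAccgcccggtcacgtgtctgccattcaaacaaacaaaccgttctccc

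Immediate early factors, which cells transcribe without new protein synthesis, rose in 20 of 27 tested cases and fell in none by edgeR or DESeq2, with a median log2 fold change of 1.38. In edgeR 1 was lower at an unadjusted p under 0.05, and 1 fell with the replicate block. Egr1, a zinc finger factor of growth signals, was at 27.6, 36.9 and 32.5 CPM with vehicle and 431, 329.7 and 354 CPM with ISO (log2 fold change 3.52 ± 0.14, adjusted p = 1.94e-08). Fosb, a subunit of AP-1, was at 6.22, 7.72 and 10.45 CPM with vehicle and 118, 83.9 and 116 CPM with ISO. Junb, another subunit, was at 40.7, 49.1 and 37.1 CPM with vehicle and 368, 295 and 396 CPM with ISO. In each of these genes the lowest ISO library exceeded the highest vehicle library by more than 5-fold. Fos rose as well (log2 fold change 2.403 ± 0.18), as did Csrnp1, a nuclear factor of the immediate early class (2.82 ± 0.21). The number called higher was 16 or 17 in all 9 fits that left out libraries.

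Of 39 nuclear receptors, 5 were called higher (12.8%) and 1 lower (2.56%), beside 5.68% and 1.80% of all tested genes. The 3 NR4A receptors, orphan factors induced by cAMP, rose together. Nr4a3 (mm9 chr4:48064120-48096224) was at 5.81, 6.88 and 10.45 CPM with vehicle and 961, 661 and 803 CPM with ISO (log2 fold change 6.72 ± 0.38, adjusted p = 1.61e-07). Nr4a1 was at 16.01, 19.4 and 15.1 CPM with vehicle and 454, 281 and 348 CPM with ISO (log2 fold change 4.42 ± 0.30, adjusted p = 5.88e-07). Nr4a2 was at 7.61, 7.01 and 10.8 CPM with vehicle and 228, 152 and 179 CPM with ISO (log2 fold change 4.46 ± 0.30, adjusted p = 6.62e-07). In all 3 genes ISO 1 was the highest and ISO 2 the lowest of the ISO libraries. Vdr, the vitamin D receptor (mm9 chr15:97684858-97738727), was at 5.31, 7.59 and 8.42 CPM with vehicle and 361, 301 and 325 CPM with ISO (log2 fold change 5.54 ± 0.27, adjusted p = 4.45e-08), a rise between those of Nr4a3 and Nr4a2.

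Of the receptors for lipid and steroid signals named here, Rarg and Nr3c1 fell. Rarg, a retinoic acid receptor, fell, at 39.3, 33.6 and 38.1 CPM with vehicle and 12.9, 16.8 and 13.9 CPM with ISO (log2 fold change -1.34 ± 0.12, adjusted p = 5.03e-06). Nr3c1, the glucocorticoid receptor, was at 178, 156 and 188 CPM with vehicle and 104, 87.4 and 112 CPM with ISO (log2 fold change -0.79 ± 0.10, adjusted p = 0.000108). Ppara was at 18.8, 19.6 and 21.1 CPM with vehicle and 20.04, 19.7 and 20.5 CPM with ISO and did not pass, and Ppard, at 77.7, 77.2 and 73.2 CPM with vehicle and 101, 90.3 and 86.1 CPM with ISO, passed only with the replicate block (adjusted p = 0.101; 0.0239 with the block). Among 21 cofactors, the coactivators Ncoa2 (-0.74 ± 0.13) and Ncoa6 (-0.68 ± 0.11) and the corepressor Ncor1 (-0.42 ± 0.08, overlapping Ttc19) fell on the log2 scale. Ppargc1a, the coactivator of oxidative genes, was the only one of the 21 called (log2 fold change 3.79 ± 0.20). In this list 2 rose, and 5 with the replicate block, while 4 fell. These were 9.52% that rose and 19.0% that fell, beside 12.3% and 13.9% of all tested genes.

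Of the Krüppel-like factors, Klf4 stood out in size. It was at 31.3, 35.8 and 47.9 CPM with vehicle and 836, 596 and 678 CPM with ISO (log2 fold change 4.20 ± 0.26, adjusted p = 3.09e-07), so that the ISO libraries held more than 10 times the level of any vehicle library. Klf9 was at 90.04, 88.0 and 99.0 CPM with vehicle and 204, 200.03 and 215 CPM with ISO (log2 fold change 1.16 ± 0.12, adjusted p = 1.47e-05), and Klf3, a repressor of adipogenesis, was called higher as well (log2 fold change 1.28 ± 0.09). Klf15, which promotes adipogenesis and amino acid breakdown, fell from a low level, at 6.51, 5.54 and 5.01 CPM with vehicle and 1.67, 2.04 and 2.94 CPM with ISO (log2 fold change -1.36 ± 0.23, adjusted p = 0.000997). Over 19 KLF and SP factors, 5 rose and 2 fell.

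Of 37 tested factors in the list of adipocyte identity, 14 fell and 6 rose, with a median of -0.11. These were 37.8% and 16.2%, beside 13.9% and 12.3% of all tested genes. The list is not limited to factors particular to adipocytes, since it also holds Gata2, Gata3, Id genes and Hox genes. Stat5a, which transmits growth hormone and prolactin signals, was at 87.3, 74.9 and 82.3 CPM with vehicle and 26.7, 24.4 and 28.7 CPM with ISO (log2 fold change -1.62 ± 0.10, adjusted p = 3.19e-07). Cebpa was at 2436, 1831 and 1956 CPM with vehicle and 1760.0, 1370.0 and 1323 CPM with ISO (log2 fold change -0.48 ± 0.16, adjusted p = 0.0409), and the adjusted p of Cebpa was above 0.05 in the fits without replicate 2, replicate 3, vehicle 1, vehicle 3, ISO 2 and ISO 3 in turn (at most 0.232). Cebpb, the early C/EBP factor, went the other way, at 240.4, 281 and 225 CPM with vehicle and 1074, 1130.2 and 911 CPM with ISO (log2 fold change 2.06 ± 0.18, adjusted p = 5.52e-06). Irf4, a factor of fasting and of the thermogenic response, was at 11.4, 8.94 and 14.8 CPM with vehicle and 58.0, 32.3 and 68.0 CPM with ISO (log2 fold change 2.17 ± 0.35, adjusted p = 0.000673), with ISO 2 the lowest of the ISO libraries. Zfp516, which activates thermogenic genes, was also called higher (log2 fold change 1.097 ± 0.15), whereas Prdm16, the factor of brown and beige identity, did not pass, at 2.50, 2.43 and 2.51 CPM with vehicle and 2.86, 3.10 and 2.12 CPM with ISO. Those that fell numbered 7 without replicate 2 and 9 without replicate 3 or vehicle 1, and those that rose 3 without replicate 3.

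The period genes of the clock split. Per3 was at 24.0, 18.4 and 23.9 CPM with vehicle and 7.80, 6.13 and 6.53 CPM with ISO (log2 fold change -1.70 ± 0.14, adjusted p = 2.36e-06) and Per2 at 11.0, 9.86 and 14.02 CPM with vehicle and 3.70, 3.62 and 6.01 CPM with ISO (log2 fold change -1.39 ± 0.22, adjusted p = 0.000621). Per1, which has a cAMP-responsive promoter, rose, at 32.7, 37.7 and 44.6 CPM with vehicle and 73.6, 66.1 and 78.0 CPM with ISO (log2 fold change 0.92 ± 0.13, adjusted p = 0.000225). Arntl, which encodes the activator BMAL1, was at 26.4, 23.7 and 21.2 CPM with vehicle and 119, 96.8 and 91.0 CPM with ISO (log2 fold change 2.10 ± 0.14, adjusted p = 4.09e-07). Nfil3 and Bhlhe40, repressors that act on the clock, were called higher (log2 fold changes 2.51 ± 0.15 and 1.72 ± 0.19), and Nr1d1, which encodes REV-ERBα, rose by less than 2-fold (0.52 ± 0.07). Of 25 clock genes, 7 rose (28%) and 5 fell (20%), beside 12.3% and 13.9% of all tested genes. The others that fell included Dbp and Tef, which are outputs of the clock (log2 fold changes -0.71 and -0.60). Dbp and Tef were named after their values were seen.

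MAPK phosphatases and feedback inhibitors rose in 14 of 26 cases and fell in 2 (4 with the replicate block), with a median of 0.53. These were 53.8% and 7.69%, beside 12.3% and 13.9% of all tested genes. Dusp5, a phosphatase of nuclear ERK, was at 8.62, 10.6 and 9.32 CPM with vehicle and 63.9, 67.0 and 70.0 CPM with ISO (log2 fold change 2.82 ± 0.17, adjusted p = 2.85e-07), a narrow ISO range well above the vehicle range. Dusp10, a phosphatase of p38 and JNK, was at 141, 140.4 and 183 CPM with vehicle and 511, 388 and 440.5 CPM with ISO (log2 fold change 1.53 ± 0.16, adjusted p = 2.12e-05). Dusp1 was at 57.0, 65.2 and 81.8 CPM with vehicle and 197, 179 and 250.3 CPM with ISO (log2 fold change 1.62 ± 0.21, adjusted p = 0.000135). Spry1, a Sprouty inhibitor, was lower with ISO (log2 fold change -0.56 ± 0.16, adjusted p = 0.0212), and the adjusted p of Spry1 was above 0.05 in the fits without replicate 1, replicate 3, vehicle 1, ISO 1 and ISO 3 in turn (at most 0.123). In the list of NF-kappa-B, STAT and IRF factors, Stat2 (log2 fold change -1.14 ± 0.20) and Irf1 (-1.28 ± 0.35), factors of the interferon response, were called lower and Nfkbiz, an inhibitor of NF-kappa-B of the nucleus, was called higher (1.28 ± 0.17). The adjusted p of Irf1 was 0.158 without replicate 3, 0.0542 without vehicle 3 and 0.0576 without ISO 1, and 7 members of this list fell with the replicate block instead of 3. Of its 28 tested genes, 3 were called higher (1 without replicate 1, replicate 2, replicate 3, vehicle 1, vehicle 3 or ISO 2) and 6 rose (3 without replicate 1, replicate 2, vehicle 1 or ISO 2).

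In lipid metabolism, the lipases themselves did not pass, and their inhibitors moved in opposite directions. Pnpla2, which encodes ATGL, was at 3391, 2843 and 3482 CPM with vehicle and 3073, 2377 and 2395 CPM with ISO (log2 fold change -0.31 ± 0.16, adjusted p = 0.17). Lipe, which encodes HSL, was at 2933, 2251 and 2549.9 CPM with vehicle and 2858, 2133 and 2022 CPM with ISO (log2 fold change -0.14 ± 0.15, adjusted p = 0.512). G0s2, a peptide inhibitor of ATGL, fell, at 509, 476 and 403 CPM with vehicle and 106, 167 and 136 CPM with ISO (log2 fold change -1.76 ± 0.36, adjusted p = 0.00354). Hilpda, another inhibitor of ATGL and a hypoxia-inducible protein of lipid droplets, rose, at 21.9, 22.03 and 28.6 CPM with vehicle and 312, 242 and 259.9 CPM with ISO (log2 fold change 3.49 ± 0.18, adjusted p = 7.79e-08). In both genes the groups did not overlap, which the rule for naming genes by their change required. Plin1, the perilipin that guards the droplet, did not pass, at 3854, 3141 and 3429 CPM with vehicle and 3444, 2733 and 2774 CPM with ISO (log2 fold change -0.22 ± 0.12, adjusted p = 0.199). Cidea, a droplet protein of brown and beige cells, was at 2.56, 1.13 and 1.84 CPM with vehicle and 6.03, 4.003 and 3.07 CPM with ISO (log2 fold change 1.23 ± 0.32, adjusted p = 0.0136), and the adjusted p of Cidea was above 0.05 in the fits without replicate 2, replicate 3 and ISO 1 in turn (at most 0.104). In all, 4 of 27 genes rose (1 without replicate 2 or replicate 3, 2 without ISO 1) and 1 fell, with 6 that fell under the replicate block. The shares that rose and fell were 14.8% and 3.70%, beside 12.3% and 13.9% of all tested genes.

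Genes of several steps from fatty acids back to triglyceride rose. Dgat1, which joins the final acyl chain to diacylglycerol (mm9 chr15:76332445-76342248), was at 258, 217 and 258 CPM with vehicle and 935, 791 and 935 CPM with ISO (log2 fold change 1.86 ± 0.14, adjusted p = 1.4e-06). Acsl3, which activates long-chain fatty acids and whose span overlaps Utp14b, was at 39.6, 38.2 and 50.8 CPM with vehicle and 143, 103 and 119 CPM with ISO. Acsl4, of the same family, was at 99.4, 103 and 108 CPM with vehicle and 245, 245 and 306 CPM with ISO. Agpat9, which encodes a glycerol-3-phosphate acyltransferase, was at 338, 330.4 and 349 CPM with vehicle and 846, 702 and 697 CPM with ISO (log2 fold change 1.14 ± 0.11, adjusted p = 1.6e-05). Gpam, the mitochondrial enzyme of that step, fell (log2 fold change -0.58 ± 0.12, adjusted p = 0.00429; 0.0868 without replicate 3). Lpl, the lipase that brings fatty acids in from lipoproteins, was at 10343, 8652 and 9060.0 CPM with vehicle and 10841, 8362 and 8818 CPM with ISO, with overlapping groups, and Pck1, the enzyme of glyceroneogenesis, did not pass, at 1311, 858 and 979 CPM with vehicle and 1770.3, 1061 and 828 CPM with ISO. Of 31 genes, 8 rose (5 without replicate 2) and 2 fell, with a median of 0.19. These were 25.8% and 6.45%, beside 12.3% and 13.9% of all tested genes.

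Of 27 lipogenic genes, 8 fell (29.6%, beside 13.9% of all tested genes; 4 without replicate 2) and 0 rose in edgeR, with a median of -0.22. At an unadjusted p under 0.05 edgeR gave 1 that was higher, DESeq2 gave 1 at an adjusted p, and 2 rose with the replicate block. Acacb, the acetyl-CoA carboxylase whose product inhibits fatty acid entry into mitochondria, was at 222, 197 and 232 CPM with vehicle and 103, 89.6 and 89.99 CPM with ISO (log2 fold change -1.21 ± 0.12, adjusted p = 1.12e-05). Srebf1, the lipogenic transcription factor, was at 315, 287 and 318 CPM with vehicle and 198, 166 and 179 CPM with ISO (log2 fold change -0.76 ± 0.09, adjusted p = 4.78e-05), and its span overlaps Rai1. Fasn, the fatty acid synthase, was at 649.8, 665 and 945 CPM with vehicle and 414, 415 and 507 CPM with ISO (log2 fold change -0.76 ± 0.23, adjusted p = 0.0306), and the adjusted p of Fasn was above 0.05 in the fits without replicate 1, replicate 2, vehicle 3, ISO 1 and ISO 2 in turn (at most 0.138). Acly and Scd1 did not pass, at log2 fold changes of -0.07 ± 0.11 and -0.22 ± 0.13.

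Of 45 genes of fatty acid oxidation and ketone metabolism, 4 rose and 5 fell (13 with the replicate block). These were 8.89% and 11.1%, near the 12.3% and 13.9% of all tested genes. Acot3, a peroxisomal acyl-CoA thioesterase, was at 3.76, 3.57 and 4.23 CPM with vehicle and 15.5, 14.8 and 24.5 CPM with ISO (log2 fold change 2.24 ± 0.26, adjusted p = 5.85e-05). Cpt1a, the liver form of the carnitine palmitoyltransferase, was at 259.5, 268 and 276 CPM with vehicle and 316, 288 and 325 CPM with ISO (log2 fold change 0.21 ± 0.08, adjusted p = 0.075; 0.0367 with the block). Acadm, the medium-chain dehydrogenase, was at 348, 299 and 281 CPM with vehicle and 341, 265 and 251 CPM with ISO (log2 fold change -0.11 ± 0.13, adjusted p = 0.56). Cpt1c, a form of low catalytic activity, was called higher at a low level (log2 fold change 1.37 ± 0.30). Mlycd, which removes malonyl-CoA, fell (log2 fold change -0.80 ± 0.17, adjusted p = 0.0038; 0.0561 without replicate 2). The number that fell was 1 without replicate 3 or vehicle 1, 2 without replicate 2, vehicle 3, ISO 2 or ISO 3, 8 without replicate 1 and 11 without ISO 1.

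The 76 genes of the respiratory chain and ATP synthase had log2 fold changes between -0.21 and 0.39, and 1 of them rose, Atp5d (log2 fold change 0.39 ± 0.11). Its adjusted p was 0.0193, and the adjusted p of Atp5d was above 0.05 in the fits without replicate 1, replicate 2, vehicle 2 and ISO 1 in turn (at most 0.146). With the replicate block, 5 rose. No gene of this list reached the 2-fold size of a call in edgeR, whatever its p, and DESeq2 called none either. The TCA cycle and branched-chain amino acid list had 1 of 40 that rose (2 with the block) and 4 that fell, of which Klf15 was the only one called. These were 2.50% and 10.0%, beside 12.3% and 13.9% of all tested genes. The number that fell was 10 with the block and 1 without replicate 3, 2 without replicate 2 or ISO 2, 7 without vehicle 2, 9 without replicate 1 and 13 without ISO 1. Thermogenic genes rose in 9 of 35 cases and fell in none by edgeR or DESeq2, with a median of 0.57. In edgeR 1 was lower at an unadjusted p under 0.05, and 2 fell with the replicate block. Ucp1, the uncoupling protein, had a log2 fold change of 8.11 ± 0.37, and Slc29a1, a nucleoside transporter, was called higher at a low level (1.17 ± 0.30; adjusted p = 0.0575 without vehicle 3). Fgf21, a hormone of the fasting state, was at 4.99, 14.1 and 19.5 CPM with vehicle and 14.8, 23.7 and 37.8 CPM with ISO, with overlap (log2 fold change 0.99 ± 0.44, adjusted p = 0.118; 0.00888 with the block). Without replicate 3, 3 genes of this list were called higher, against 5.

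Of 42 genes of glycolysis and pyruvate entry, 14 rose and 1 fell (3 with the replicate block), with a median of 0.23. Hk2, the hexokinase that traps glucose, was at 237, 234 and 279.8 CPM with vehicle and 845, 667 and 754 CPM with ISO (log2 fold change 1.59 ± 0.16, adjusted p = 1.22e-05). Slc2a1, the GLUT1 transporter, was at 131, 154 and 173 CPM with vehicle and 269.8, 328 and 345 CPM with ISO (log2 fold change 1.04 ± 0.13, adjusted p = 0.000103). Slc16a3, a lactate exporter, was at 10.6, 14.2 and 7.13 CPM with vehicle and 21.1, 34.3 and 29.1 CPM with ISO (log2 fold change 1.41 ± 0.27, adjusted p = 0.00213; 0.056 without replicate 3). Pfkfb1, a form of the enzyme that sets fructose 2,6-bisphosphate, fell (log2 fold change -1.17 ± 0.14), and Pfkfb3, its inducible form, did not pass (-0.35 ± 0.26). The count that rose was 6 without replicate 2, 7 without replicate 3, 9 without vehicle 3 or ISO 3 and 10 with scaling by library totals, and 2 were called higher, against 4, without vehicle 1 or ISO 3.

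Targeting subunits of protein phosphatase 1, which bring the phosphatase to glycogen, moved apart. Ppp1r3g was at 0, 0.0839 and 0 CPM with vehicle and 17.1, 11.7 and 13.7 CPM with ISO, with 0, 2 and 0 counts in the vehicle libraries and at least 317 in each ISO library. Ppp1r3d fell, at 30.1, 26.3 and 26.3 CPM with vehicle and 12.02, 10.4 and 11.98 CPM with ISO (log2 fold change -1.27 ± 0.11, adjusted p = 4.86e-06), as did Ppp1r3e (log2 fold change -0.70 ± 0.13). Gys1, the muscle form of glycogen synthase, did not pass, at 162, 136 and 149 CPM with vehicle and 148, 129 and 140.5 CPM with ISO. Over 26 glycogen genes, 4 rose (2 without replicate 2) and 3 fell (5 with the block), with 1 called higher (2 with the block). The shares that rose and fell, 15.4% and 11.5%, were near the 12.3% and 13.9% of all tested genes. The share called higher was 3.85%, beside 5.68%. In sterol synthesis, 4 of 32 rose and 5 fell, and these shares of 12.5% and 15.6% were near those of all tested genes (12.3% and 13.9%). Mvk, the mevalonate kinase, was at 38.2, 31.5 and 35.9 CPM with vehicle and 96.8, 79.8 and 65.0 CPM with ISO (log2 fold change 1.19 ± 0.13, adjusted p = 3.25e-05), Soat1, which esterifies cholesterol, was called higher (1.08 ± 0.21), and Sc5d, a late enzyme of the pathway, fell (-0.63 ± 0.09). The number of sterol genes that fell was 2 without replicate 2, replicate 3 or vehicle 3 and 3 without ISO 1 or ISO 2.

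**Figure D4:**
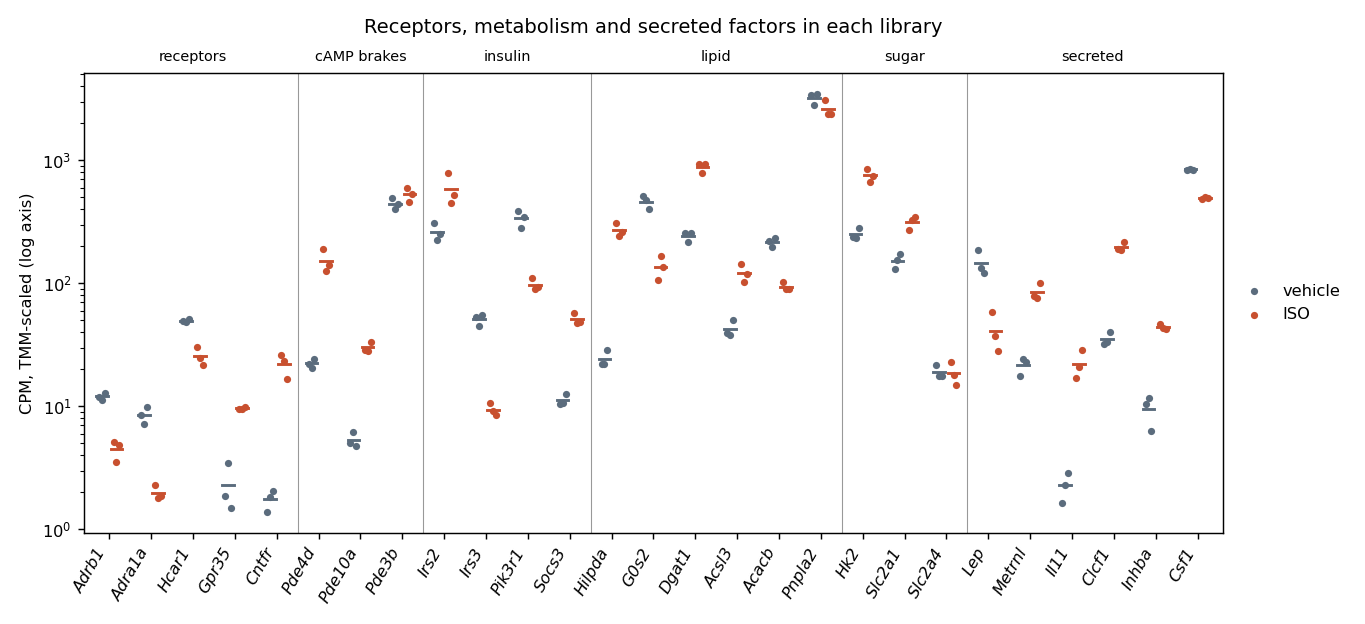
CPM of 27 receptors, signaling, metabolic and secreted genes in each of the 3 vehicle (grey) and 3 ISO (red) libraries, on a log axis, with a bar at each group's mean. Hilpda, Cntfr, Il11 and Pde4d lie higher with ISO and Irs3, Adra1a, Lep and Acacb lower in every library, while Pde3b, Pnpla2 and Slc2a4 overlap.

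Heat shock genes rose in 14 of 29 cases (9 without replicate 2) and fell in none by edgeR or DESeq2, with 2 lower at an unadjusted p under 0.05 in edgeR and 2 that fell with the replicate block. Hsph1, a chaperone of the HSP110 family, was at 65.1, 71.3 and 73.1 CPM with vehicle and 250.3, 255 and 219 CPM with ISO (log2 fold change 1.79 ± 0.13, adjusted p = 1.05e-06). Bag3, a co-chaperone of HSP70, was at 347, 345 and 335 CPM with vehicle and 1045, 850.4 and 831 CPM with ISO (log2 fold change 1.41 ± 0.10, adjusted p = 1.25e-06), and Dnajb1, an HSP40, was called higher as well (log2 fold change 1.18 ± 0.16). In the unfolded protein and integrated stress response, 11 of 43 rose and 1 fell, with 19 and 5 under the replicate block. Ddit4, which inhibits mTORC1, was at 132, 107 and 103 CPM with vehicle and 346, 325 and 331 CPM with ISO (log2 fold change 1.55 ± 0.17, adjusted p = 3.31e-05). Chac1, which degrades glutathione and is a target of ATF4, was at 72.5, 77.6 and 79.5 CPM with vehicle and 220.3, 199 and 228 CPM with ISO (log2 fold change 1.495 ± 0.20, adjusted p = 0.000192). Slc3a2, the shared chain of several amino acid exchangers, was at 224, 241 and 231 CPM with vehicle and 684, 640.2 and 576 CPM with ISO (log2 fold change 1.45 ± 0.12, adjusted p = 2.89e-06). Eif2ak3, the kinase PERK, was lower with ISO (log2 fold change -0.89 ± 0.27, adjusted p = 0.0276), and the adjusted p of Eif2ak3 was above 0.05 in the fits without replicate 2, replicate 3, vehicle 2, vehicle 3, ISO 1 and ISO 2 in turn (at most 0.162).

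Solute and amino acid transporters rose in 8 of 41 cases and fell in 4 (9 with the block), which is 19.5% and 9.76% beside 12.3% and 13.9% of all tested genes. Slc38a2, a glutamine and alanine importer, was at 124, 176 and 193 CPM with vehicle and 341, 320.1 and 371 CPM with ISO (log2 fold change 1.07 ± 0.16, adjusted p = 0.000353). Slc7a8, a neutral amino acid exchanger, was at 6.32, 7.30 and 6.54 CPM with vehicle and 14.3, 11.8 and 22.2 CPM with ISO (log2 fold change 1.26 ± 0.19, adjusted p = 0.000508). Slc5a3, the myo-inositol importer, fell, at 477, 437 and 513 CPM with vehicle and 281, 255 and 310.1 CPM with ISO (log2 fold change -0.75 ± 0.11, adjusted p = 0.000255), and its span overlaps Mrps6. Those that rose numbered 4 without replicate 2 and 5 without replicate 3 or vehicle 3, and those that fell 2 without replicate 2, replicate 3, vehicle 1, vehicle 3 or ISO 2.

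Among secreted proteins, leptin fell and the hormones Metrnl and Gdf15 rose. Lep (mm9 chr6:29010221-29023876) was at 187, 133 and 122 CPM with vehicle and 58.5, 37.3 and 28.2 CPM with ISO (log2 fold change -1.84 ± 0.25, adjusted p = 0.000192). Adipoq, which encodes adiponectin, was at 3353, 2542 and 3491 CPM with vehicle and 2839, 1939.5 and 2016 CPM with ISO (log2 fold change -0.47 ± 0.23, adjusted p = 0.156). Cfd, which encodes adipsin, was at 5699.9, 3721 and 5151 CPM with vehicle and 4846, 3061 and 3079 CPM with ISO (log2 fold change -0.41 ± 0.23, adjusted p = 0.212), both with overlap. Metrnl, a hormone of adipose tissue and muscle, was at 17.7, 24.2 and 22.9 CPM with vehicle and 79.0, 75.6 and 100.1 CPM with ISO (log2 fold change 1.98 ± 0.18, adjusted p = 8.46e-06). Gdf15, a stress hormone that lowers food intake, was at 143, 172 and 212 CPM with vehicle and 623, 572 and 505 CPM with ISO (log2 fold change 1.69 ± 0.32, adjusted p = 0.00211). Angptl4, an inhibitor of Lpl, was lower in each ISO library without passing, at 1169, 1314 and 1414 CPM with vehicle and 1003, 1088 and 1143 CPM with ISO (log2 fold change -0.27 ± 0.13, adjusted p = 0.144; 0.0227 with the block). In the list of 41 adipokines, 4 rose and 5 fell, shares of 9.76% and 12.2% near those of all tested genes (12.3% and 13.9%), with 9 that rose under the block and 5 called higher instead of 2. The number that rose was 2 without replicate 1, vehicle 1, vehicle 3 or ISO 2, and the number that fell was 2 without replicate 2, replicate 3, vehicle 1, ISO 2 or ISO 3 and 3 without vehicle 3.

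Growth factors rose in 15 of 52 cases and fell in 2, with 12 called higher and a median of 0.64. Vegfa, which drives vessel growth, was at 166, 173 and 175 CPM with vehicle and 373, 328 and 439 CPM with ISO (log2 fold change 1.15 ± 0.17, adjusted p = 0.000377). Stc1, a glycoprotein hormone of calcium and phosphate balance, was at 1.55, 2.48 and 2.19 CPM with vehicle and 7.13, 11.9 and 12.4 CPM with ISO (log2 fold change 2.35 ± 0.37, adjusted p = 0.000547). Ereg, a ligand of the EGF receptor, was low and rose (log2 fold change 2.15 ± 0.50, adjusted p = 0.00759; 0.0834 without replicate 1 and 0.0604 without replicate 3). Csf1, the growth factor of macrophages, fell, at 844, 856 and 841 CPM with vehicle and 488, 502 and 491 CPM with ISO (log2 fold change -0.78 ± 0.08, adjusted p = 1.87e-05), as did Cyr61, a matrix protein induced by YAP (-0.84 ± 0.18). Those called higher numbered 5 without replicate 3 and 6 without replicate 1, and those that rose 5 without replicate 3, 8 without replicate 1 and 9 without vehicle 3. Beside this, the macrophage, endothelial, fibroblast, mesothelial and granulocyte and mast cell marker sums were higher in each ISO library, and their part in the secreted factors was not tested.

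Ligands of the TGF-beta and Wnt families moved in both directions. Inhba, the subunit of activin A, was at 10.52, 11.7 and 6.30 CPM with vehicle and 46.6, 43.5 and 42.8 CPM with ISO (log2 fold change 2.22 ± 0.22, adjusted p = 1.65e-05). Wnt11 was at 2.27, 2.69 and 2.35 CPM with vehicle and 14.4, 17.7 and 14.1 CPM with ISO (log2 fold change 2.67 ± 0.29, adjusted p = 2.71e-05) and Wnt9b at 0.568, 0.755 and 0.822 CPM with vehicle and 10.4, 4.997 and 4.63 CPM with ISO (log2 fold change 3.22 ± 0.36, adjusted p = 4.08e-05), and both are ligands of Frizzled receptors. Wnt5a, a ligand of the noncanonical pathway, fell, at 64.6, 49.5 and 48.2 CPM with vehicle and 19.5, 20.5 and 21.2 CPM with ISO (log2 fold change -1.41 ± 0.20, adjusted p = 0.000279), and Smad6, which inhibits BMP signaling, fell too (-1.09 ± 0.13). Of 47 tested members, 14 rose and 3 fell, and 8 were called higher (13 with the replicate block, where 22 rose and 5 fell). The number called higher was 5 without replicate 3 or vehicle 1 and 13 without vehicle 2, and the number that rose was 6 without replicate 3 or vehicle 1, 7 without vehicle 3, 8 without ISO 2 or ISO 3 and 9 without replicate 1.

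Cytokines of the interleukin 6 family were among the clearest rises of their list. Clcf1, which signals through Cntfr, was at 32.0, 33.4 and 40.4 CPM with vehicle and 191, 186 and 217 CPM with ISO (log2 fold change 2.49 ± 0.13, adjusted p = 1e-07). Il11, another member, was at 2.28 ± 0.628 CPM with vehicle and 22.3 ± 5.97 CPM with ISO (SD, n = 3; log2 fold change 3.29 ± 0.37, adjusted p = 4.22e-05). Il6 was at 0.790, 1.68 and 0.822 CPM with vehicle and 5.68, 7.85 and 6.27 CPM with ISO (log2 fold change 2.61 ± 0.27, adjusted p = 2.08e-05). For all 3 the lowest ISO library was above 3 times the highest vehicle library. Cxcl14, a chemokine of brown and beige fat, was at 10.2, 18.3 and 8.89 CPM with vehicle and 52.0, 64.0 and 70.5 CPM with ISO (log2 fold change 2.32 ± 0.30, adjusted p = 0.000112). Cxcl10, an interferon-induced chemokine whose span overlaps Art3, fell, at 6.95, 8.14 and 8.65 CPM with vehicle and 2.29, 3.78 and 2.72 CPM with ISO (log2 fold change -1.42 ± 0.26, adjusted p = 0.00177), as did Cxcl9 (-0.99 ± 0.29, adjusted p = 0.0247), and the adjusted p of Cxcl9 was above 0.05 in the fits without replicate 2, vehicle 3, ISO 2 and ISO 3 in turn (at most 0.143). Of 38 tested members, 12 rose and 2 fell, and 11 were called higher, a number that was 5 without replicate 3, 6 without vehicle 1 and 7 without vehicle 3. Those that rose numbered 5 without replicate 3 and 6 without vehicle 1.

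Genes of prostaglandin synthesis rose in 8 of 22 cases and fell in none by edgeR or DESeq2, with 2 lower at an unadjusted p under 0.05 in edgeR and 2 that fell with the replicate block. Ptgs2, the inducible cyclooxygenase COX-2, was at 11.1, 16.8 and 6.89 CPM with vehicle and 56.8, 59.7 and 69.8 CPM with ISO (log2 fold change 2.42 ± 0.32, adjusted p = 0.000158). Slco2a1, a prostaglandin transporter, was at 48.2, 46.4 and 51.6 CPM with vehicle and 105, 94.7 and 177 CPM with ISO (log2 fold change 1.37 ± 0.21, adjusted p = 0.000462), with ISO 3 the highest. Ptgs1, the constitutive cyclooxygenase, was called higher (log2 fold change 1.13 ± 0.32), and the adjusted p of Ptgs1 was above 0.05 in the fits without replicate 1, replicate 3, vehicle 1, vehicle 3 and ISO 2 in turn (at most 0.122). Ptger2, a receptor for prostaglandin E2 that raises cAMP, was called higher at a low level (1.25 ± 0.30, adjusted p = 0.00895; 0.0818 without replicate 1 and 0.0575 without replicate 3). The number of the list called higher was 2 without replicate 1 and 3 without replicate 2 or vehicle 3, against 5, and 8 that rose became 4 without replicate 1 and 5 without replicate 2 or vehicle 3.

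Extracellular matrix and protease genes rose in 24 of 60 cases and fell in 4, with a median of 0.62. Fn1, fibronectin, was at 577, 964 and 596 CPM with vehicle and 1178, 1352 and 2062 CPM with ISO (log2 fold change 1.104 ± 0.22, adjusted p = 0.00269; log2 fold change 0.72 and adjusted p = 0.0704 without replicate 3). Adamts9, a protease of proteoglycans, was at 22.4, 30.8 and 32.2 CPM with vehicle and 179, 157 and 171 CPM with ISO. Adamts4, a related protease, was at 9.19, 11.0 and 9.24 CPM with vehicle and 39.9, 48.4 and 61.8 CPM with ISO. Adamts5, of the same family, fell, at 26.7, 33.5 and 53.3 CPM with vehicle and 14.6, 13.4 and 16.04 CPM with ISO (log2 fold change -1.37 ± 0.27, adjusted p = 0.00299). Thbs1, thrombospondin 1, was at 3310.4, 3661 and 5108 CPM with vehicle and 2187, 1857 and 2029 CPM with ISO (log2 fold change -0.99 ± 0.19, adjusted p = 0.00252). Has1, whose promoter is printed above, was at 0.284, 0.923 and 0.352 CPM with vehicle and 9.16, 13.0 and 16.1 CPM with ISO (log2 fold change 4.65 ± 0.45, adjusted p = 1.06e-05). The number called higher was 11, and it was 18 without ISO 1, 21 without replicate 2 and 22 without vehicle 2. The number that rose was 14 without replicate 3, and the number that fell 2 without replicate 1, replicate 3, vehicle 1 or ISO 3. Here too the fibroblast markers, which hold the collagen genes Col1a1 and Col3a1 (log2 fold changes 0.96 and 0.87), were higher with ISO, and their part was not tested.

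Several of the largest changes lay outside these lists. Tnfaip6, which binds hyaluronan and modifies it during inflammation (mm9 chr2:51893633-51912201), was at 3.66, 4.24 and 5.68 CPM with vehicle and 432, 307 and 406 CPM with ISO (log2 fold change 6.40 ± 0.23, adjusted p = 6.66e-09). Gprc5a, an orphan receptor induced by retinoic acid, was at 0.474, 0.839 and 0.548 CPM with vehicle and 21.98, 21.3 and 29.9 CPM with ISO (log2 fold change 5.31 ± 0.55, adjusted p = 1.98e-05). Scrt1, a zinc finger repressor of neurons, was at 0.0947, 0.0839 and 0.0392 CPM with vehicle and 8.85, 4.86 and 12.6 CPM with ISO. Neu2, a cytosolic sialidase, was at 0.0316, 0.0420 and 0 CPM with vehicle and 2.60, 3.80 and 9.43 CPM with ISO. Both were close to 0 in every vehicle library. Tchhl1 was at 0.0632, 0.168 and 0.0392 CPM with vehicle and 6.30, 4.84 and 5.71 CPM with ISO. Cyp2ab1, a cytochrome P450, was at 0.0316, 0.126 and 0.117 CPM with vehicle and 2.99, 5.99 and 6.79 CPM with ISO.

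By the difference in CPM among the genes called higher, the largest rises were of Hmox1, which breaks down heme, at 2100.1, 2116 and 1630.2 CPM with vehicle and 5076, 5019.6 and 5364 CPM with ISO (log2 fold change 1.40 ± 0.28, adjusted p = 0.00317), and of Uap1 and Ugdh, which make UDP-sugars. Uap1 (mm9 chr1:172072134-172105077) was at 237, 207 and 234 CPM with vehicle and 2052, 1595 and 1678 CPM with ISO (log2 fold change 2.97 ± 0.14, adjusted p = 4.45e-08), and Ugdh (mm9 chr5:65804461-65827081) at 239, 234 and 244 CPM with vehicle and 1611, 1533 and 1621 CPM with ISO (log2 fold change 2.73 ± 0.10, adjusted p = 6.66e-09). Srxn1, sulfiredoxin, was at 721, 622 and 599 CPM with vehicle and 2036, 1982 and 1952 CPM with ISO (log2 fold change 1.62 ± 0.18, adjusted p = 3.26e-05). Among the genes called lower, the fall in CPM was largest for Dlc1, a GTPase-activating protein, at 1068, 928 and 1026 CPM with vehicle and 359, 323 and 398 CPM with ISO (log2 fold change -1.49 ± 0.10, adjusted p = 6.47e-07). Fam102b, G0s2, Tmcc3, Fzd4 and Pik3r1 followed in this order. Fzd4, a Frizzled receptor, was at 432, 356 and 398 CPM with vehicle and 144, 99.8 and 116 CPM with ISO (log2 fold change -1.72 ± 0.14, adjusted p = 2.01e-06). Fam102b (log2 fold change -1.15 ± 0.14) and Tmcc3 (-1.12 ± 0.12) fell by a little over 2-fold from 473 CPM or more in each vehicle library.

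Among the largest falls on the log2 scale were regulators of several kinds. Zfp449, a zinc finger protein, was at 34.0, 25.6 and 27.5 CPM with vehicle and 8.19, 5.45 and 5.75 CPM with ISO (log2 fold change -2.18 ± 0.19, adjusted p = 4.03e-06). Dab2ip, a Ras GTPase-activating protein, was at 97.1, 85.9 and 92.2 CPM with vehicle and 20.7, 23.1 and 28.4 CPM with ISO (log2 fold change -1.93 ± 0.12, adjusted p = 2.85e-07). Gprin3, which interacts with G proteins, was at 70.4, 52.9 and 57.2 CPM with vehicle and 21.2, 12.8 and 15.4 CPM with ISO (log2 fold change -1.88 ± 0.26, adjusted p = 0.000219). Clec2d, a C-type lectin, was at 47.3, 39.5 and 43.2 CPM with vehicle and 11.1, 10.3 and 13.6 CPM with ISO (log2 fold change -1.90 ± 0.16, adjusted p = 4.31e-06). The ISO libraries did not overlap the vehicle libraries in these 4 genes, which was a condition of naming them. Frat1, an inhibitor of GSK3 (-2.03 ± 0.27), Lrrc75b (-2.25 ± 0.25) and Bahcc1 (-1.91 ± 0.18) fell as well. Fign, a microtubule-severing protein, was at 8.09, 8.14 and 10.2 CPM with vehicle and 0.881, 1.70 and 2.21 CPM with ISO (log2 fold change -2.45 ± 0.28, adjusted p = 4.96e-05). Rasd1, a Ras-like inhibitor of cAMP production, had a log2 fold change of -2.51 ± 0.18, and its span overlaps Med9.

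Of the genes called higher, 42 had at most 3 counts in each vehicle library, and 20 had at most 1. Such genes could pass the filter only through groups other than vehicle, so these numbers are descriptive and no support for a rise. Their number among all tested genes was not counted. Some of the 42 were low with ISO too, such as Astn1 with 1 count in its lowest ISO library. Cckbr, the gastrin receptor, had 0 counts in all 3 vehicle libraries and was at 0.925, 0.543 and 1.77 CPM with ISO, at least 8.58-fold above the level that 3 counts give in the shallowest vehicle library. Fezf2, a zinc finger factor, had 0 counts with vehicle too and was at 0.925, 0.950 and 1.04 CPM, at least 7.71-fold higher by the same measure. Both were named after their values were seen. Epx, eosinophil peroxidase, was at 0.0316, 0 and 0 CPM with vehicle and 3.66, 6.15 and 10.2 CPM with ISO, with 1 count in the vehicle libraries, while the eosinophil genes Prg2, Siglecf and Ccr3 were too low to be tested in the same libraries. Of the 5 tested markers of granulocytes and mast cells, Epx, Kit and S100a8 were called higher, and the part of these cells was not tested.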

How the data were processed

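RNA was sequenced (TruSeq2) in 12 eWA cultures, of which 3 vehicle and 3 ISO libraries are compared here. The authors aligned reads to mm9 with STAR 2.4.2a and summarized them per gene with HOMER and iRNA-seq, keeping 1 read for each position and read length. The deposited table holds these raw counts for 20295 genes, beside transcript and exon lengths. Strand-specific counting is not stated, so overlapping genes are named as such. Totals were 22632220 to 43707557 counts in the 6 libraries, where 3 counts correspond to 0.0678 to 0.132 CPM, which covers counting error only.

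In R 4.3.3, edgeR 4.0.16 (filterByExpr, TMM, quasi-likelihood F-test, two-sided, 1 mean per group over all 12 libraries, Benjamini-Hochberg over 13543 genes) gave the fold changes. Alternatives were DESeq2 1.42.0, other scalings and filters, the replicate block and 9 fits that left out libraries, where "without replicate n" drops that number from every group. Titles share replicate numbers, and same-numbered vehicle and ISO libraries deviated together (r = 0.298, 0.331 and 0.139 across genes). Vehicle and ISO libraries of unlike number had r between -0.329 and 0.0853, the highest for vehicle 3 with ISO 1. The numbers were taken to pair the samples only in the replicate block, and the main fit has no such block. Of 1286 listed genes in 33 lists and 10 marker lists, 1166 were tested.

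The members and lists were chosen with earlier results of these data known. Named genes are the 12 called in each direction with the largest change among those at 5 CPM or more in the higher group without overlap, the 6 in each direction with the largest difference in CPM, up to 4 called in each direction per list (or up to 3 past the adjusted p where fewer than 2 were called), and genes fixed for their role. The script was tested on simulated counts. Promoters are from RefSeq (GRCm38.p6). When named genes were searched, those of chromosome 18 and those named only by their difference in CPM were left out. A few items are not reported here.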

Additional observations from a re-analysis of the deposited data

How the results depend on the processing

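The genes called higher numbered 769, and 487 with a filter at 5 CPM, where fewer genes were tested, and 431 to 994 over 9 fits that left out libraries. Those called lower numbered 244, and 145 with the 5 CPM filter and 208 to 278 with libraries left out. Genes that rose at any size numbered 1670, and 2552 with the replicate block and 882 to 1708 with libraries left out, and genes that fell numbered 1878, and 2660 with the block and 834 to 1813 with libraries left out. With the block, 961 genes were called higher and 266 lower, of which 765 and 243 were called without it. It ended no call among 228 named genes, let 8 more pass the adjusted p, and changed no other call beyond those given beside the results. DESeq2 called 874 genes higher and 244 lower. Genes with few vehicle counts numbered 42 at a limit of 3 counts and 20 at a limit of 1 count. The share of promoters of genes called higher with the palindrome was 4.42%, and with its 5-base core it was 34.98%. Of the named genes, 199 passed the adjusted p, 167 kept their sign and side of the threshold under every alternative, and 45 lost the adjusted p in at least 1 fit that left out libraries. The direction turned only for 7 genes that had not passed, and the cause was not tested. Lpl (-0.00175) was at 0.00957 with DESeq2 size factors and with DESeq2, 0.0387 with the 5 CPM filter, 0.00386 with only these 6 libraries and -0.125 to 0.0755 with libraries left out. Ppara was at -0.0257 with library totals, -0.0035 with no filter and -0.0245 to 0.0548 with libraries left out. Slc2a4 was at 0.00783 with the 5 CPM filter and -0.202 to 0.0999 with libraries left out. With libraries left out, the ranges were -0.132 to 0.0224 for Acly, -0.0323 to 0.162 for Ffar4, -0.155 to 0.432 for Pck1 and -0.0102 to 0.275 for Prdm16. The depth limits genes near 0: 3 counts are 0.126 CPM in the shallowest vehicle library, and a lower level could not be told from 0.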

Other observations

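Genes of hyaluronan synthesis formed a group that the lists above hold only in part. The group was put together after the values of Uap1, Ugdh, Has1 and Tnfaip6 had been seen, so it is described and not tested. Hyaluronan is a long sugar chain of the matrix, built at the cell surface from UDP-glucuronate and UDP-N-acetylglucosamine. Gfpt2, which commits fructose 6-phosphate to the hexosamine route, was at 21.9, 33.8 and 29.7 CPM with vehicle and 285, 281 and 361 CPM with ISO (log2 fold change 3.44 ± 0.24, adjusted p = 8.41e-07), while its relative Gfpt1 was at 139.8, 156 and 188 CPM with vehicle and 145, 137 and 152 CPM with ISO. Has2, a hyaluronan synthase like Has1, was at 1.83, 1.59 and 1.61 CPM with vehicle and 8.19, 7.28 and 10.47 CPM with ISO (log2 fold change 2.36 ± 0.25, adjusted p = 2.45e-05), and Has3 was under 1 CPM in every library. Cd44, the hyaluronan receptor, was at 54.7, 75.4 and 63.8 CPM with vehicle and 115, 143 and 148 CPM with ISO (log2 fold change 1.07 ± 0.13, adjusted p = 0.000107). Of 15 genes 8 rose, with a median of 1.07, beside 12.3% of all tested genes that rose. The 8 include Uap1, Ugdh, Has1 and Tnfaip6, which prompted the group, so the count and the median are no support for it. The groups of Gfpt1, Gnpnat1 and Pgm3, steps of the same route, overlapped. Hyal1 and Hyal2, which degrade hyaluronan, did not pass (log2 fold change -0.27 ± 0.14, adjusted p = 0.177 and log2 fold change -0.21 ± 0.09, adjusted p = 0.0976). Both groups were cultured in a gel of gelin-S and glycosil-S, of which the latter is a modified hyaluronan. The fibroblast markers were higher with ISO too, and their part was not tested.

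Beside Hmox1 and Srxn1, other genes of the response to oxidants were looked at, again after those values had been seen. Gclc, the catalytic subunit of glutathione synthesis, was at 98.1, 106 and 88.5 CPM with vehicle and 387, 406 and 363 CPM with ISO (log2 fold change 1.98 ± 0.13, adjusted p = 6.22e-07), whereas the modifier subunit Gclm overlapped between groups (0.16 ± 0.31). Nfe2l2, the transcription factor NRF2, rose by less than 2-fold, at 104, 119 and 104 CPM with vehicle and 187, 174 and 159.7 CPM with ISO (log2 fold change 0.67 ± 0.09, adjusted p = 0.000211). Nqo1 and Slc7a11, textbook targets of this factor, were higher in each ISO library but did not pass (log2 fold change 0.95 ± 0.55, adjusted p = 0.218 and log2 fold change 1.25 ± 0.64, adjusted p = 0.168). Of 20 genes, 7 rose, with a median of 0.40, beside 12.3% of all tested genes that rose. The 7 include Hmox1 and Srxn1, which prompted this list, so the count is no support for it.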
